A study of Mus musculus with 7 samples.

Results

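The 10 genes described here encode subunits of the transcription factor NF-kB and proteins that restrain or tune its activation: Nfkb1, Nfkb2 and Relb, Nfkbia, Nfkbiz and Bcl3, Tnfaip3, Tnip1 and Birc3, and Traf1. They were taken by symbol, all 10 were found among the 55417 symbols of the count table, and all 10 were among the 13329 genes that passed the low-count filter. The measurements came from RNA sequencing of 7 libraries of the mouse line RAW264.7, whose cells resemble macrophages. The libraries carried a short hairpin against Dpep2, either shDpep2.968 (n = 2) or shDpep2.759 (n = 2), or the control hairpin shNT (n = 3). Dpep2 encodes a membrane-bound dipeptidase, and the labels give no other treatment, no stimulus and no time point. Nothing in the labels states whether replicates came from separate cultures, so each p-value reflects the variation among these libraries and may be purely technical.

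NF-kB is a family of DNA-binding dimers that inhibitor proteins of the IkB family hold in the cytoplasm of resting macrophages. Signals from Toll-like, interleukin-1 and TNF receptors activate a kinase complex that marks the inhibitors for destruction, and the dimers then enter the nucleus and switch on inflammatory genes. Among the genes they switch on are their own inhibitors and several ubiquitin-editing proteins, which close negative feedback loops, so transcripts of these genes are commonly read as a record of pathway activity. A second, slower route processes the Nfkb2 precursor and acts through Relb.

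Total counts ran from 16548648 to 18401060 per library. Dpep2 itself stood at 17.9 to 24.9 CPM (counts scaled to library size after TMM normalisation) in the hairpin libraries, against 52.1 to 60.3 CPM in the shNT libraries. Every library thus matched its label as Dpep2 hairpin or shNT. The Dpep2 levels of shDpep2.968 and shDpep2.759 overlapped, so they cannot check which of these hairpins a library carried. Of 10 macrophage markers, 9 passed the low-count filter and 2 of these were higher with the hairpins in the averaged test described below. In that test 3.44% of all tested genes were higher. The macrophage markers summed to 15065 to 20745 CPM in hairpin libraries and 14447 to 15885 CPM in shNT libraries, while Mertk was close to 0. Neutrophil markers summed to 33.9 to 237 CPM in hairpin libraries and 17.3 to 33.7 CPM in shNT libraries. That sum was almost entirely S100a8, with Ly6g at 0 counts in every library and S100a9 at or below 0.331 CPM in each group's mean. Fibroblast markers summed to at most 2.41 CPM in any library, with Col1a2 at 0. Only 1 of these 5 markers passed the filter, and it was higher with the hairpins. Epithelial markers summed to at most 0.173 CPM (Epcam and Krt18 at 0). Dendritic cell markers summed to at most 4.92 CPM. The part of these markers in the results below was not tested.

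Promoter sequences, from 250 bases before to 50 bases from the annotated transcript start, were held by the RefSeq promoter table for 7 of the 10 genes (GRCm38.p6), and they are shown because binding sites for NF-kB in them are the textbook basis of the feedback loops. The kappaB consensus was searched on both strands as 3 G bases, a purine, 2 bases of any kind, 2 pyrimidines and 2 C bases, with overlapping matches counted separately. It was present in the promoters of Tnfaip3, Tnip1, Nfkbia, Nfkb2 and Bcl3 and not in the windows of Traf1 and Birc3, that is in 5 of 7 genes, against 9.55% of the 27025 genes with a promoter in the table. In the sequences below, written 5′ to 3′ on the strand of the gene, capitals mark bases covered by a match; all 4 genes lie on the minus strand. They are the gene with the largest change (Tnfaip3, first of 2 annotated starts, chr10:19015361-19015660), the other gene past the test (Traf1, chr2:34961723-34962022), the partner of the Tnfaip3 protein (Tnip1, chr11:54962891-54963190) and the classical inhibitor (Nfkbia, chr12:55492598-55492897).
Tnfaip3: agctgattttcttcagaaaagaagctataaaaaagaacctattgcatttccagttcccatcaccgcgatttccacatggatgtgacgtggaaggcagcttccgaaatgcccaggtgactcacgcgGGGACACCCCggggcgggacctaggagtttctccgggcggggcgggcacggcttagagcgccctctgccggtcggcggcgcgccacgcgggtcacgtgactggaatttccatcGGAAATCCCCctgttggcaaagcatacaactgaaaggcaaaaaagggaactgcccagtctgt
Traf1: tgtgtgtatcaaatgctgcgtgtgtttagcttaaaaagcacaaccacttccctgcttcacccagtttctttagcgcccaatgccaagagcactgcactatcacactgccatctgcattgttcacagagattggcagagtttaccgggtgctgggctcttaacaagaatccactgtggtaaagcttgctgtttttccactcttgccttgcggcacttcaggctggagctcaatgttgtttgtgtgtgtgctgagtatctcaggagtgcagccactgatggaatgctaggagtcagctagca
Tnip1: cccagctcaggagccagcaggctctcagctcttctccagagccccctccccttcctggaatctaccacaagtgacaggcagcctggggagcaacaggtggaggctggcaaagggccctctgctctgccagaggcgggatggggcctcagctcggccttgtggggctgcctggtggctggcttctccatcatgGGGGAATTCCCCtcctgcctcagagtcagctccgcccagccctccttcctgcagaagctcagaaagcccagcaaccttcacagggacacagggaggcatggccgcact
Nfkbia: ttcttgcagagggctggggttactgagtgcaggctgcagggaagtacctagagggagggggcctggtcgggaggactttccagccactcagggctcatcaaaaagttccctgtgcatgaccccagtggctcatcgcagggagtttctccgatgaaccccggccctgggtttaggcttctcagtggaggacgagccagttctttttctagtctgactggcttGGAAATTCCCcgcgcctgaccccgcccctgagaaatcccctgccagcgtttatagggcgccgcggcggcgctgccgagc
The Tnfaip3 matches lay at bases -125 to -116 and -12 to -3 relative to the transcript start, the second reading GGGGATTTCC on the opposite strand. In Tnip1, overlapping matches covered bases -58 to -47 around GGGAATTCCC, which reads the same on both strands. In Nfkbia a single match, GGGAATTTCC on the opposite strand, lay at bases -29 to -20. The second annotated Tnfaip3 start (chr10:19011914-19012213) had no match. A match describes the letters only and says nothing of whether a factor bound there.

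The first comparison set both Dpep2 hairpins, averaged, against shNT, and asked whether transcripts of the NF-kB machinery changed when Dpep2 was reduced. Of the 10 genes 2 rose and none fell: Tnfaip3 rose 2.11-fold and Traf1 1.33-fold (edgeR quasi-likelihood test, Benjamini-Hochberg adjusted over all tested genes, threshold 0.05). Over all tested genes 3.44% were called higher and 4.15% lower, 7.59% in either direction. In bulk RNA a change in the share of cells expressing a gene cannot be told apart from a change in RNA per cell. The 3 subunits and the 3 IkB family members had fitted folds between 0.85 and 1.05, and none passed the test. The median log2 fold change of the 10 genes was 0.03, against 0.00253 over all tested genes. At an unadjusted p under 0.05 the counts were 3 higher and 0 lower, with 22.9% of all tested genes under that value, and DESeq2 and limma-voom each called 2 higher and 0 lower.

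**Figure D1:**
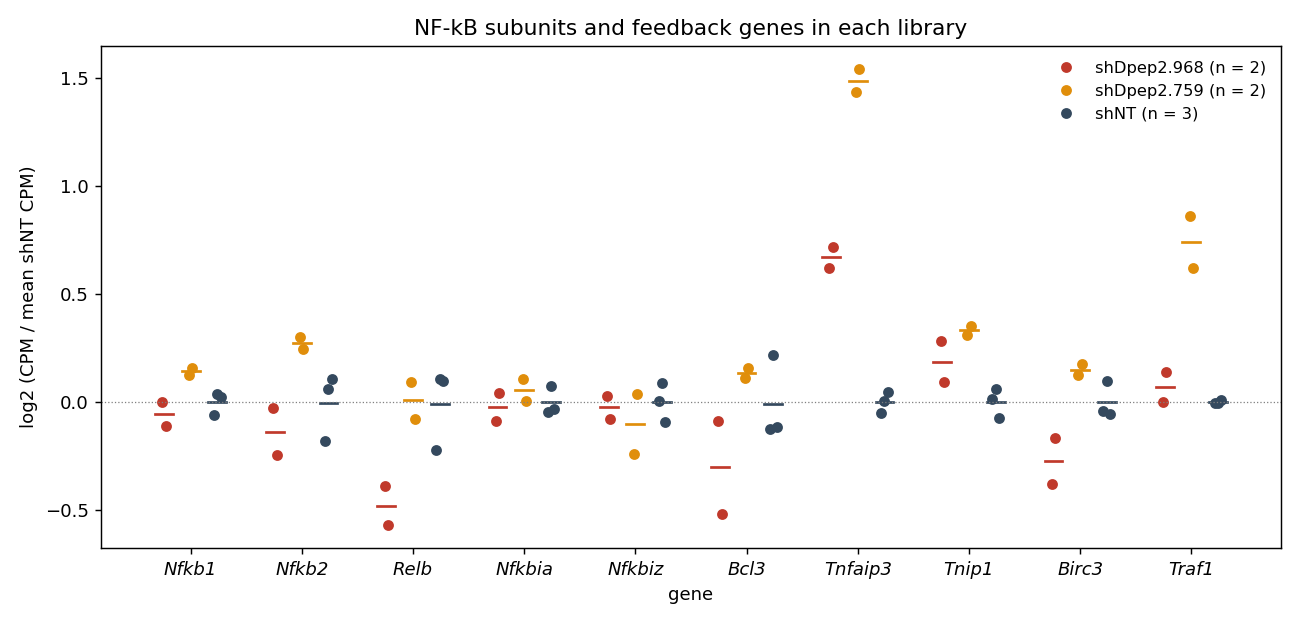
Level of each gene in each library, as log2 of CPM over the mean shNT CPM, with points for libraries and bars for the mean of the plotted values in each group (shDpep2.968 n = 2, shDpep2.759 n = 2, shNT n = 3). All 4 hairpin libraries lie above all 3 shNT libraries for Tnfaip3 and Tnip1 and for no other gene plotted, and the shDpep2.759 libraries are the highest for Traf1.

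Tnfaip3 encodes A20, a ubiquitin-editing enzyme that takes activating ubiquitin chains off signalling proteins upstream of NF-kB and is itself an NF-kB target. It stood at 31.9 and 34.0 CPM in the shDpep2.968 libraries and 56.0 and 60.4 CPM in the shDpep2.759 libraries, against 20.0, 20.8 and 21.3 CPM in the shNT libraries. Every hairpin library lay above every shNT library, and the shDpep2.759 libraries lay above the shDpep2.968 libraries. The averaged log2 fold change was 1.08 (SE 0.11, 95% interval 0.85 to 1.31, edgeR quasi-likelihood adjusted p = 0.000137), and by p the gene ranked 18 among all tested genes. It kept its call under all 17 alternatives tried, with log2 fold changes from 1.05 to 1.14 and adjusted p-values up to 0.0227. Counted against Nfkbia within the same library, which removes library scaling, Tnfaip3 reads were 0.135 and 0.133 per Nfkbia read with shDpep2.968 and 0.208 and 0.241 with shDpep2.759, against 0.0826, 0.0789 and 0.0874 with shNT.

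Traf1 encodes an adaptor of the TNF receptor-associated factor family that lacks the RING domain of its relatives and binds TRAF2 and cIAP proteins at TNF family receptors. It stood at 36.1 and 39.8 CPM in the shDpep2.968 libraries and 65.6 and 55.5 CPM in the shDpep2.759 libraries, against 36.0, 36.0 and 36.3 CPM in the shNT libraries. The shDpep2.759 libraries were above all others, whereas one shDpep2.968 library lay within the shNT range. The averaged log2 fold change was 0.41 (SE 0.11, 95% interval 0.18 to 0.64, edgeR adjusted p = 0.0356). That averaged call was lost without shNT replicate 1 (edgeR adjusted p = 0.0772), shNT replicate 2 (0.151) or shNT replicate 3 (0.148). It was also lost when both hairpins were treated as 1 group (0.218) and with a replicate block (0.261). Leaving out shDpep2.968 replicate 2 or shDpep2.759 replicate 1, which leaves that hairpin with 1 library, lost it too. Adjusted p-values ranged from 0.00252 to 0.261 across all alternatives.

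Tnip1 encodes ABIN-1, which binds A20 and brings it to ubiquitin chains. It stood at 299.7 and 263 CPM in the shDpep2.968 libraries and 306 and 315 CPM in the shDpep2.759 libraries, against 249, 257 and 234 CPM in the shNT libraries. The hairpin libraries did not overlap the shNT libraries, a separation upwards that 9.03% of all tested genes shared, with 9.51% separated downwards and 18.5% in either direction. The fitted fold was 1.20 (log2 fold change 0.26, SE 0.10, 95% interval 0.04 to 0.48) and did not pass the test (edgeR adjusted p = 0.143). With a correction for GC content and transcript length the log2 fold change was 0.40 and passed (adjusted p = 0.00686, range over alternatives 0.00686 to 0.701). That correction brought 2147 genes past the threshold, against 1012 without it.

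Birc3, the third ubiquitin-related gene, encodes cIAP2, a ubiquitin ligase of TNF receptor complexes that NF-kB induces. Its values were 29.9 and 34.7 CPM in the shDpep2.968 libraries and 42.5 and 44.0 CPM in the shDpep2.759 libraries, against 37.8, 41.6 and 37.5 CPM in the shNT libraries. The shDpep2.968 libraries lay below and the shDpep2.759 libraries above all shNT libraries, and the averaged fold was 0.96 (95% interval 0.82 to 1.13, edgeR adjusted p = 0.788).

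The subunit genes gave no call in this comparison. Nfkb1 encodes p105, the precursor of p50, and stood at 250.2 and 232 CPM in the shDpep2.968 libraries and 273 and 279.7 CPM in the shDpep2.759 libraries, against 240.4, 257 and 254 CPM in the shNT libraries. Its averaged fold was 1.03 (95% interval 0.89 to 1.19, edgeR adjusted p = 0.836), and the shDpep2.759 libraries lay above the shNT range while the shDpep2.968 libraries overlapped or lay below it. Nfkb2, which encodes the p100 precursor of p52, stood at 73.3 and 63.1 CPM in the shDpep2.968 libraries and 92.2 and 88.6 CPM in the shDpep2.759 libraries, against 65.9, 78.0 and 80.6 CPM in the shNT libraries. Its averaged fold was 1.05 (95% interval 0.89 to 1.23, adjusted p = 0.751), with the shDpep2.759 libraries above the shNT range and one shDpep2.968 library below it. GC and length correction moved its log2 fold change to 0.25 with a call (edgeR adjusted p = 0.0357, range over alternatives 0.0357 to 0.964). Relb, the partner of p52 in the slower route, stood at 14.5 and 12.7 CPM in the shDpep2.968 libraries and 20.2 and 17.9 CPM in the shDpep2.759 libraries, against 16.2, 20.4 and 20.2 CPM in the shNT libraries. Its averaged fold was 0.85 (95% interval 0.70 to 1.03, adjusted p = 0.303), and only the shDpep2.968 libraries lay outside the shNT range, below it. Relb reads per Nfkb2 read were 0.197 and 0.202 with shDpep2.968 and 0.219 and 0.202 with shDpep2.759, against 0.246, 0.261 and 0.251 with shNT, so the groups did not overlap for this ratio, which was chosen among 5 ratios and not tested.

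None of the IkB family genes passed the test. Nfkbia encodes IkB alpha, the inhibitor that NF-kB resynthesises most rapidly, and stood at 235 and 257 CPM in the shDpep2.968 libraries and 269 and 250.4 CPM in the shDpep2.759 libraries, against 242, 263 and 244 CPM in the shNT libraries. The values interleaved, and the averaged fold was 1.01 (95% interval 0.87 to 1.17, edgeR adjusted p = 0.945). Nfkbiz encodes IkB zeta, a nuclear member that acts as a coactivator of secondary response genes, and stood at 137 and 127 CPM in the shDpep2.968 libraries and 114 and 138 CPM in the shDpep2.759 libraries, against 135, 143 and 126 CPM in the shNT libraries. Its averaged fold was 0.96 (95% interval 0.82 to 1.12, edgeR adjusted p = 0.783), with the groups again interleaved. Bcl3, another nuclear IkB protein that joins p50 and p52 dimers, stood at 65.1 and 48.4 CPM in the shDpep2.968 libraries and 74.9 and 77.1 CPM in the shDpep2.759 libraries, against 63.6, 80.5 and 63.8 CPM in the shNT libraries. Its averaged fold was 0.95 (95% interval 0.78 to 1.15, edgeR adjusted p = 0.765), and the shDpep2.759 libraries lay within the shNT range. The promoters of Nfkbia and Bcl3 held the kappaB consensus, as did that of Tnfaip3, and the searched window of Traf1 held none. Sequence outside these windows was not searched, and a link between matches and changes was not tested.

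Expressed per kilobase of the longest GENCODE M21 transcript, so that genes can be set beside each other, Nfkbia had the highest shNT level of the 10 genes at 158 ± 7.4 CPM per kb (SD, n = 3), followed by Tnip1 at 83.0 ± 3.9 and Nfkb1 at 60.4 ± 2.2. Bcl3 at 37.5 ± 5.2 CPM per kb and Nfkbiz at 32.7 ± 2.0 came next and did not differ beyond their spread. Nfkb2 (19.4 ± 2.0), Birc3 (13.4 ± 0.79), Traf1 (10.5 ± 0.053), Relb (5.79 ± 0.73) and Tnfaip3 (3.34 ± 0.11) followed in that order. Tnfaip3 was thus the lowest of the 10 per kilobase in shNT cells, an order that rests on the lengths used. In CPM, without lengths, Tnfaip3 stood above Relb in each shNT library, at 20.0 against 16.2, 20.8 against 20.4 and 21.3 against 20.2. Per kilobase, Tnfaip3 stood above Relb in each hairpin library, at 5.14 against 4.42 and 5.49 against 3.89 CPM per kb with shDpep2.968. With shDpep2.759 the values were 9.03 against 6.17 and 9.74 against 5.48 CPM per kb. The annotation behind the deposited counts is not given in the sources used here, so these lengths are approximate.

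The second comparison took each hairpin alone against shNT; the 2 results share the shNT libraries. With shDpep2.968, 1 of the 10 genes changed, with 5.25% of all tested genes called in either direction, 2.29% higher and 2.96% lower. That gene was Tnfaip3, which rose 1.59-fold (log2 fold change 0.67, SE 0.12, 95% interval 0.40 to 0.94, edgeR adjusted p = 0.0100). Among the 7 fits that left out a library, its call with shDpep2.968 was lost in 1, that without shDpep2.968 replicate 2 (adjusted p = 0.139, range over alternatives 0.000431 to 0.139). The Tnfaip3 call with shDpep2.968 was also lost with a replicate block. Relb had the lowest fitted fold of the others, at 0.72 (log2 fold change -0.48, SE 0.16, edgeR adjusted p = 0.0940). At an unadjusted p under 0.05, 1 gene was higher and 1 lower with shDpep2.968, against 23.1% of all tested genes. Tnfaip3 and Tnip1 lay above all shNT libraries and Relb and Birc3 below them, a separation found upwards in 20.7% and downwards in 22.7% of all tested genes, 43.4% in all. With shDpep2.759, 2 of the 10 changed, with 4.73% of all tested genes called, 2.72% higher and 2% lower. Tnfaip3 rose 2.81-fold (log2 fold change 1.49, SE 0.12, edgeR adjusted p = 6.86e-05) and Traf1 1.68-fold (0.75, SE 0.12, edgeR adjusted p = 0.00419), and both kept these calls under all 17 alternatives. At an unadjusted p under 0.05, 3 genes were higher and 0 lower with shDpep2.759, against 19.3% of all tested genes. Nfkb1, Nfkb2, Tnfaip3, Tnip1, Birc3 and Traf1 lay above all shNT libraries with shDpep2.759, 6 of 10 where 18.2% of all tested genes did so and 36.3% separated in either direction. Traf1 had a fold of 1.05 with shDpep2.968 (95% interval 0.87 to 1.27, edgeR adjusted p = 0.769). For the 8 genes not called with shDpep2.759, fitted folds ran from 0.94 to 1.26, and for the 9 not called with shDpep2.968 from 0.72 to 1.14.

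**Figure D2:**
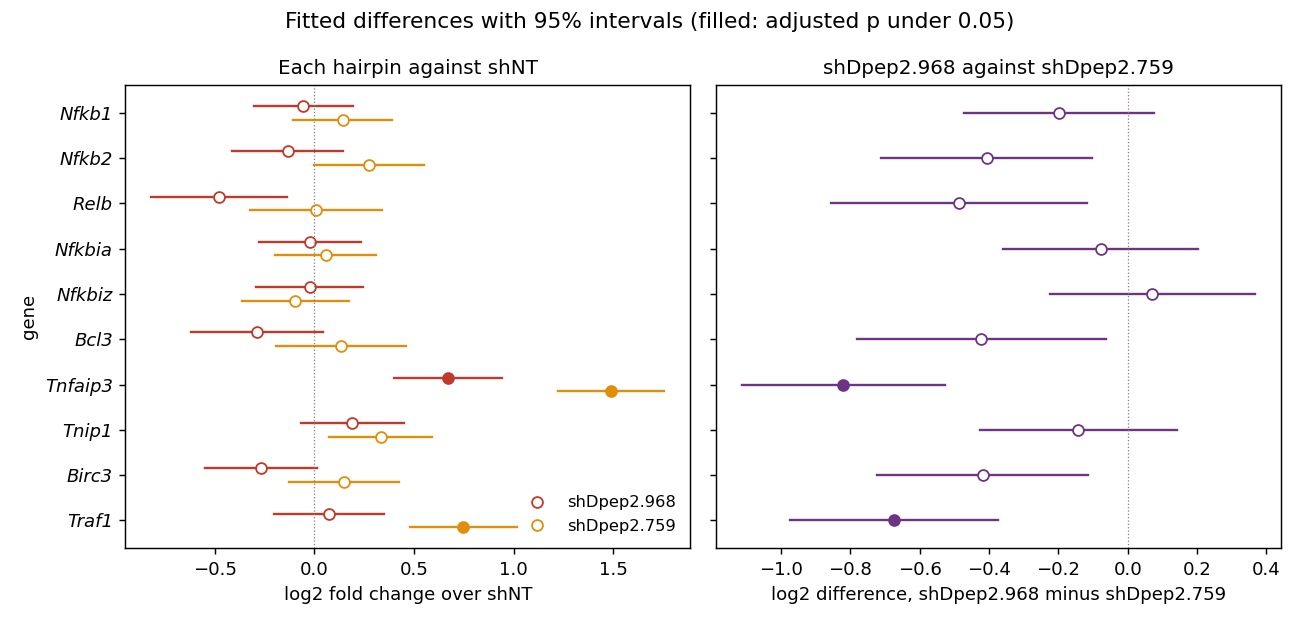
Fitted log2 differences (points) with 95% intervals (lines) for the 10 genes, filled where the adjusted p was under 0.05. Left, shDpep2.968 and shDpep2.759 each against shNT, with Tnfaip3 filled for both hairpins and Traf1 for shDpep2.759; right, shDpep2.968 minus shDpep2.759, where 9 of 10 points are negative and those of Tnfaip3 and Traf1 are filled.

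The third comparison set the hairpins against each other. Of the 10 genes 2 were called, Tnfaip3 and Traf1, both lower with shDpep2.968. Over all tested genes 0.84% were called between the hairpins, 0.585% lower with shDpep2.968. Both genes had been called against shNT from the same hairpin libraries, Traf1 with shDpep2.759 and not with shDpep2.968. The comparisons are therefore not independent, and a difference in this direction is partly built in for Traf1. Tnfaip3 averaged 32.9 ± 1.5 CPM with shDpep2.968 and 58.2 ± 3.1 CPM with shDpep2.759 (SD, n = 2 each), a log2 difference of -0.82 (SE 0.14, 95% interval -1.11 to -0.53, edgeR quasi-likelihood adjusted p = 0.0173). Traf1 averaged 38.0 ± 2.6 CPM with shDpep2.968 and 60.6 ± 7.2 CPM with shDpep2.759, a log2 difference of -0.67 (SE 0.14, 95% interval -0.97 to -0.37, edgeR adjusted p = 0.0416). Dpep2 stood at 20.1 ± 3.2 CPM with shDpep2.968 and 22.2 ± 3.8 CPM with shDpep2.759 (SD, n = 2 each), a log2 difference of -0.14 that was not called.

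Among the other genes none passed the test between the hairpins. The log2 difference was negative for 9 of the 10, with Nfkbiz the exception, and the median over the 10 was -0.41, against -0.01 over all tested genes. The shDpep2.968 libraries lay below the shDpep2.759 libraries without overlap for 8 of the 10, a separation found downwards in 22.5% of all tested genes and in either direction in 42.9%. At an unadjusted p under 0.05, 6 genes were lower and 0 higher, against 15% of all tested genes in either direction. The log2 differences of Nfkb2 (-0.41), Relb (-0.49), Bcl3 (-0.42) and Birc3 (-0.42) had 95% intervals that stopped short of 0, but their adjusted p-values were 0.195 to 0.261. Birc3 was called between the hairpins under 1 of 17 alternatives, the GC and length correction (log2 difference -0.43, edgeR adjusted p = 0.0489, range over alternatives 0.0489 to 0.474). The call for Tnfaip3 was lost without shDpep2.968 replicate 1 (adjusted p = 0.0956), shDpep2.968 replicate 2 (0.173) or shNT replicate 3 (0.0596), over a range of 0.000143 to 0.173, and that for Traf1 in every fit that left out a library except that without shDpep2.759 replicate 2. With only the hairpin libraries fitted, the adjusted p was 0.0512 for Tnfaip3 and 0.115 for Traf1.

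**Figure D3:**
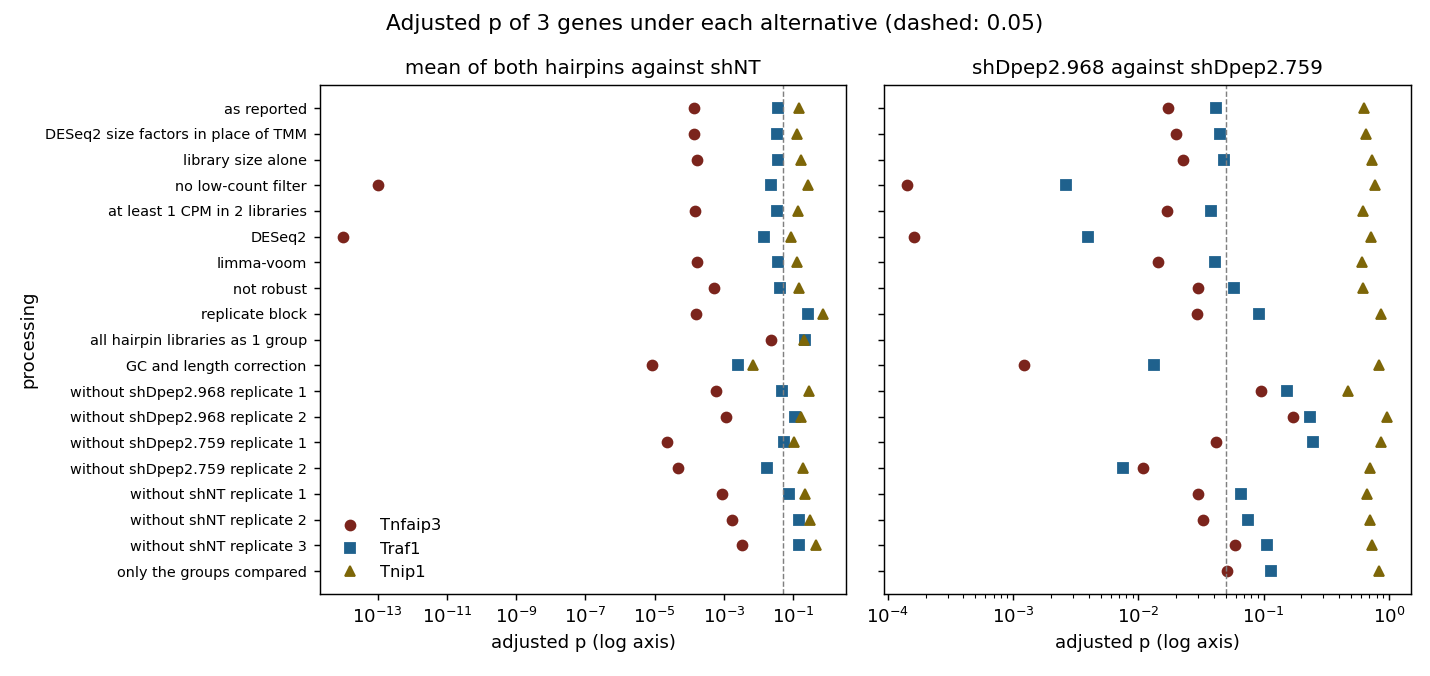
Adjusted p of Tnfaip3, Traf1 and Tnip1 under each way of processing (rows), for the mean of both hairpins against shNT (left) and for shDpep2.968 against shDpep2.759 (right), on a log axis with the threshold of 0.05 dashed. In the left panel Tnfaip3 stays left of the line in every row with a value, Traf1 crosses it in several, and Tnip1 is left of it only with the GC and length correction.

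The genes whose profiles lay closest to those of the called genes were found among 9418 other tested genes averaging at least 5 CPM, by the root-mean-square difference of log2 CPM over the 7 libraries after centring each gene on its mean. For Tnfaip3 the closest was Tnfrsf1b, which encodes the second TNF receptor, with a root-mean-square difference of 0.12 log2 units. Tnfrsf1b stood at 378 and 415 CPM in the shDpep2.968 libraries and 765 and 710.2 CPM in the shDpep2.759 libraries, against 270.4, 243 and 225 CPM in the shNT libraries. The next was Myc, the growth-promoting transcription factor, at 0.17 log2 units. For Traf1 they were Ptges, a prostaglandin E synthase, at 0.07 log2 units and Trex1, a DNA exonuclease, at 0.08 log2 units. Ptges stood at 44.0 and 49.3 CPM in the shDpep2.968 libraries and 76.3 and 63.1 CPM in the shDpep2.759 libraries, against 38.7, 42.6 and 40.1 CPM in the shNT libraries. These genes were picked for their likeness to the called genes, so the order of their groups follows from that choice.

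Outside the 10 genes, 5 lists covered the remaining subunits, the kinases, the adaptors, other feedback genes and the target genes in the averaged comparison. Among 5 other subunit and inhibitor genes (Rel, Rela, Nfkbib, Nfkbid and Nfkbie) 0 passed the edgeR test, with 1 higher and 1 lower at an unadjusted p under 0.05 and 0 by DESeq2 and limma-voom. Those with the smallest p were Nfkbib at a log2 fold change of -0.37 (adjusted p = 0.0855) and Nfkbid at 0.38 (adjusted p = 0.123). Among 11 kinase genes of the IKK, TAK1, NIK and TBK1 modules 0 passed, 0 had an unadjusted p under 0.05, and 0 were called by DESeq2 or limma-voom. The smallest p-values there belonged to Map3k14, which encodes the NIK kinase of the slower route, at a log2 fold change of -0.20 (edgeR adjusted p = 0.332), and to Tab1, an activator of TAK1, at -0.25 (0.403).

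Among 21 receptor adaptor genes 1 was lower and 0 were higher, 4.76% against 7.59% of all tested genes. Irak1, a kinase that carries signals from interleukin-1 and Toll-like receptors, stood at 45.4 and 38.6 CPM in the shDpep2.968 libraries and 37.4 and 36.4 CPM in the shDpep2.759 libraries, against 48.6, 54.1 and 50.5 CPM in the shNT libraries. It fell by 0.38 on the log2 scale (SE 0.11, edgeR adjusted p = 0.0473), a call that did not hold without shDpep2.968 replicate 2, shDpep2.759 replicate 2 or any one shNT library. Among 16 other ubiquitin and feedback genes 1 was lower and 0 were higher, 6.25% against 7.59% of all tested genes. Sigirr, a receptor that dampens interleukin-1 and Toll-like receptor signalling, stood at 7.52 and 7.03 CPM in the shDpep2.968 libraries and 6.90 and 5.80 CPM in the shDpep2.759 libraries, against 11.5, 14.7 and 14.8 CPM in the shNT libraries. Its log2 fold change was -1.01 (SE 0.15, 95% interval -1.33 to -0.69, edgeR adjusted p = 0.00162), every hairpin library lay below every shNT library, and it stayed called in all 7 fits that left out a library.

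**Figure D4:**
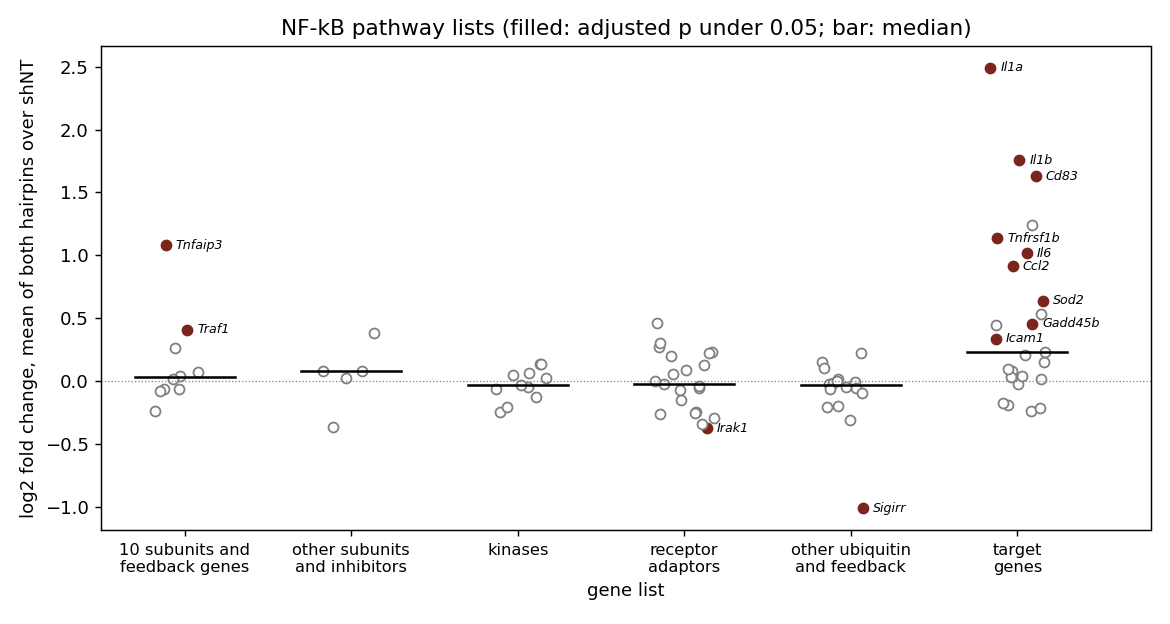
Averaged log2 fold change of both hairpins over shNT for each tested gene of the 10-gene set and 5 further pathway lists; filled and named points had an adjusted p under 0.05 and bars are medians. Calls are few outside the target list, whose 9 calls are all above 0.

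Of 25 tested NF-kB target genes (26 listed, with Vcam1 under the filter) 9 were higher and none lower, 36% against 7.59% of all tested genes, with a median log2 fold change of 0.23. The 4 with the smallest p were Cd83, an activation marker (log2 fold change 1.63), Tnfrsf1b (1.14), and the cytokines Il1a (2.49) and Il1b (1.75), with edgeR adjusted p-values of 6.2e-05 to 0.000272. The remaining 5 were the cytokine Il6, the chemokine Ccl2, the mitochondrial superoxide dismutase Sod2, the growth arrest gene Gadd45b and the adhesion molecule Icam1. Taken singly against shNT, the first 4 and Ccl2 were called higher with both hairpins, and Il6 with shDpep2.968 only. Sod2 and Gadd45b were called with shDpep2.759 only, and Icam1 with neither hairpin alone. Targets that did not pass, picked here after their values were seen, included Tnf at a fold of 1.06, the chemokines Cxcl2 (0.98) and Ccl4 (1.03), Nos2 (1.01) and Ptgs2 (0.89, though lower with shDpep2.759 alone). The Cxcl2 average joined folds of 1.33 with shDpep2.968 and 0.73 with shDpep2.759, neither called. Between the hairpins Cxcl2 was called higher with shDpep2.968 (log2 difference 0.87, edgeR adjusted p = 0.0209). This list was written with earlier results of these data known and is not independent evidence of its direction. Fewer of its genes were called without shNT replicate 2 or shNT replicate 3 (6 each) and with all hairpin libraries as 1 group (5).

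Taken hairpin by hairpin, with shDpep2.968 against shNT 1 of the 16 other ubiquitin and feedback genes was called (Sigirr, lower). None of the other subunits, kinases or adaptors was called there, where 5.25% of all tested genes were. On the target list, 6 of 25 tested genes were higher and 0 lower with shDpep2.968 than with shNT. That is 24%, against 5.25% of all tested genes called in either direction and 2.29% called higher. With shDpep2.759 against shNT, 1 of 11 kinases and 1 of 21 adaptors were higher and 2 of 16 other ubiquitin and feedback genes lower, where 4.73% of all tested genes were called. The genes named next were picked after their values were seen. Ikbke, a kinase related to TBK1, stood at 75.1 and 61.9 CPM in the shDpep2.968 libraries and 130.1 and 111 CPM in the shDpep2.759 libraries, against 79.9, 86.0 and 82.3 CPM in the shNT libraries. It was higher with shDpep2.759 than with shNT (log2 fold change 0.54, edgeR adjusted p = 0.0254) and lower with shDpep2.968 than with shDpep2.759 (log2 difference -0.82, adjusted p = 0.0209). Myd88, the shared adaptor of interleukin-1 and most Toll-like receptors, was higher with shDpep2.759 than with shNT (log2 fold change 0.52, edgeR adjusted p = 0.0224). Between the hairpins 1 of 11 kinases and 3 of 16 other ubiquitin and feedback genes were called, 18.8% for the feedback genes against 0.84% of all tested genes. Irak3, an inhibitory relative of Irak1, and Tnfaip8l2, a restraint on innate immune signalling, were lower with shDpep2.968 than with shDpep2.759 (log2 differences -0.72 and -0.84, edgeR adjusted p = 0.0266 and 0.0315). Rnf11, a partner of A20, was higher with shDpep2.968 than with shDpep2.759 (log2 difference 1.03, edgeR adjusted p = 0.0338) and lower with shDpep2.759 than with shNT (log2 fold change -0.83, adjusted p = 0.0220). Ptgs2, the inducible cyclooxygenase, stood at 760.1 and 979.8 CPM in the shDpep2.968 libraries and 382 and 445 CPM in the shDpep2.759 libraries, against 781, 664 and 582 CPM in the shNT libraries, and was higher with shDpep2.968 than with shDpep2.759 (log2 difference 1.07, edgeR adjusted p = 0.0173). It was the 1 target called lower with shDpep2.759 than with shNT (log2 fold change -0.71, edgeR adjusted p = 0.0253), where 8 were higher. Of the 25 tested target genes 2 were higher and 3 lower with shDpep2.968 than with shDpep2.759, 20% against 0.84% of all tested genes (0.255% higher and 0.585% lower).

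Nfkb2 and Bcl3 share exonic bases with genes on the opposite strand in GENCODE M21 (Psd with 299 bases and Gm16175 with 161 bases). Psd had 42 to 74 counts and Gm16175 0 to 3 counts per library, against 1090 to 1644 for Nfkb2 and 840 to 1469 for Bcl3, and whether strand was used in counting is not given in the sources used here.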

How the data were processed

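Whole-number counts per gene symbol were deposited by the authors for 7 RAW264.7 libraries. Per the labels, libraries were stranded, made from total RNA and read from both ends at 150 bases. Salmon and Trim Galore appear in the submitters' processing notes with no version, beside hg38, a human build, although the symbols are mouse. No source used here gives the annotation, the strand setting or whether the counts are rounded estimates.

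Samples were grouped by hairpin from their titles. The analysis used edgeR 4.0.16 under R 4.3.3. After filterByExpr on 3 groups and TMM scaling, a single model held all 7 libraries with a mean for each hairpin, leaving 4 residual degrees of freedom (common biological coefficient of variation 13.8%). Robust quasi-likelihood tests were run for both Dpep2 hairpins averaged and singly over shNT, and for shDpep2.968 over shDpep2.759. Adjustment was by Benjamini-Hochberg across 13329 genes (threshold 0.05). Standard errors are the log2 fold change over the square root of the F statistic, and 95% intervals use the moderated degrees of freedom. No pair of replicates looked like one library deposited again (chi-square 14.9 to 43.4 for each degree of freedom). The fits were also run on simulated counts with known changes shared by both hairpins, and the outcome is not reported here. Alternatives were other scalings and filters, DESeq2 1.42.0, limma-voom (limma 3.58.1), no robust estimation, a replicate block, hairpins as 1 group, fits restricted to the compared groups, correction for GC and length (GENCODE M21, 97.1% of tested genes) and each library left out.

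All 10 genes were named whatever their values. Each list contributed its called genes, at most 4 by smallest p, or 2 genes where it had no call. Each called gene of the 10 contributed its 2 closest profiles. The called target genes beyond the first 4 were named as well, and other exceptions are marked in the text. The genes and lists were chosen with earlier results of these data known. One list of cell type markers is not reported here.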

Additional observations from a re-analysis of the deposited data

Results flagged for a closer look

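Tnfaip3 differed between the hairpins: it averaged 32.9 CPM with shDpep2.968 and 58.2 CPM with shDpep2.759, a log2 difference of -0.82 (edgeR adjusted p = 0.0173). The 2 shDpep2.968 libraries lay below the 2 shDpep2.759 libraries. Such a separation was found downwards in 22.5% of all tested genes and in either direction in 42.9%. Traf1 differed in the same direction, averaging 38.0 CPM with shDpep2.968 and 60.6 CPM with shDpep2.759, a log2 difference of -0.67 (edgeR adjusted p = 0.0416). The call was lost under 4 of 17 alternatives for Tnfaip3 and 9 of 17 for Traf1. Groups of 2 or 3 libraries were too small to look for a library far from the others of its group.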

How the results depend on the processing

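Of 680 values of the 10 genes under alternatives, 629 kept their direction and side of the threshold, 22 lost a call, 6 gained one and 23 changed sign, none of the last being called. The cause was not tested for any of them. Tnfaip3 against shNT kept its call under all 17 alternatives for the averaged hairpins and for shDpep2.759, as did Traf1 for shDpep2.759.

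The replicate numbers were not shown to pair the libraries: correlations of same-numbered deviations were 0.10 between the hairpins, -0.32 between shDpep2.968 and shNT and -0.25 between shDpep2.759 and shNT. With the replicate block, 1 of the 10 genes was called for the averaged hairpins (Tnfaip3; Traf1 adjusted p = 0.261), 0 for shDpep2.968 (Tnfaip3 adjusted p = 0.0602) and 1 between the hairpins (Tnfaip3; Traf1 adjusted p = 0.0926). The block left 404, 308 and 312 calls over all genes for the averaged hairpins, shDpep2.968 and shDpep2.759, and 0 receptor adaptors.

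Calls over all genes were 1012 for the averaged hairpins, 700 for shDpep2.968, 630 for shDpep2.759 and 112 between the hairpins. Without the low-count filter they were 1590, 1443, 1131 and 669 in that order, with 2 other subunits and 3 receptor adaptors called. With the GC and length correction they were 2147, 1723, 1670 and 535, with 4 of the 10 genes called for the averaged hairpins, 2 for shDpep2.968 and 4 for shDpep2.759, and with 4 receptor adaptors and 3 other ubiquitin genes. DESeq2 called 2 receptor adaptors and 376 genes between the hairpins. Without robust estimation there were 0 receptor adaptors, and between the hairpins 1 of the 10 genes and 63 genes in all. With all hairpin libraries as 1 group there were 540 genes in all, 1 of the 10, 0 receptor adaptors and 5 targets. Fits of the compared groups alone gave 1347 genes for shDpep2.968, and between the hairpins 51 genes with 0 of the 10.

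Leaving out each library gave 324 to 1496 genes for the averaged hairpins, 69 to 1356 for shDpep2.968, 250 to 772 for shDpep2.759 and 6 to 1088 between the hairpins. Of the 10 genes it gave 1 to 2 calls for the averaged hairpins, 0 to 1 for shDpep2.968 and 0 to 2 between the hairpins; a hairpin left with 1 library was assumed to vary like the other groups. Among the lists it gave 0 to 1 other subunits, 0 to 3 adaptors, 1 to 2 other ubiquitin genes and 6 to 12 targets.

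Signs changed only for uncalled values. The GC and length correction gave log2 fold changes of -0.0046 for Nfkb1 and 0.0864 for Bcl3 (averaged), 0.079995 for Nfkb2, 0.0739 for Nfkbia and 0.0072 for Nfkbiz (shDpep2.968), and 0.0493 for Nfkbia between the hairpins, and library size alone gave -0.0204 for Relb with shDpep2.759. Leaving out libraries gave averaged values of -0.0161 to 0.0555 for Nfkbia, -0.194 to 0.0443 for Bcl3, -0.136 to 0.0115 for Nfkbiz and -0.0135 to 0.124 for Nfkb2. It gave -0.0878 to 0.0382 for Nfkbia and -0.0797 to 0.0277 for Nfkbiz with shDpep2.968, -0.250 to 0.0424 for Nfkbiz and -0.0909 to 0.0846 for Relb with shDpep2.759, and -0.0617 to 0.228 for Nfkbiz between the hairpins. Each hairpin had 2 libraries, which limits the precision of every value.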
